A study of Mus musculus with 2 samples.

Results

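The glycolysis and hypoxia response genes are a set of 33 mouse genes chosen by symbol: the transporters and enzymes that carry glucose to lactate, the regulators of that flux, and genes switched on when oxygen is low. Of these, 32 were matched among the 19059 genes of the table, and Gapdh is not analysed here. Aldoa stands on 2 rows, of which the first, with 84136 of the UMIs against 398, was used. The 32 genes lie on 16 chromosomes of GRCm38, with 5 on chromosome 7 and 5 on chromosome 6, so they do not form a linked cluster. The tumors were KPC orthotopic pancreatic tumors in mice, that is, pancreatic carcinoma of the KPC mouse model grown in the pancreas of a host. The study holds 2 samples, tumors given the vehicle DMSO and tumors given EIPA at 10 mg/kg, a blocker of sodium-proton exchangers that is also used to inhibit macropinocytosis. Both samples are KPC tumors at the orthotopic site and each pooled 4 tumors, so differences between animals cannot be seen. Host strain, age and length of treatment are not stated in the labels. Flash-frozen tumors were dissociated and fixed, and RNA was read by gene-specific probes (Chromium Fixed RNA Profiling), with each molecule counted once by its unique molecular identifier (UMI).

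The table holds both libraries, told apart only by the number 1 or 2 at the end of each cell barcode. No label used here ties a number to DMSO or to EIPA, so the libraries are called library 1 and library 2, a difference between them has no treatment direction, and with 1 library per number no test of a difference is possible. Library 1 held 12337 cells with a median of 11695 UMIs and library 2 held 11945 cells with a median of 10756; after filters and doublet removal 11115 and 10785 were kept. The libraries shared 225 barcodes. Levels are given in CPM, the UMIs of a gene per 1000000 UMIs summed over the cells of a class in a library. Intervals are exact Poisson 95% intervals and cover counting error only. Probes differ in efficiency between genes, so a level is compared for the same gene across cells and never between genes.

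Glycolysis splits glucose to pyruvate, and lactate dehydrogenase and monocarboxylate transporters dispose of the product when mitochondria do not take it up. At low oxygen the prolyl hydroxylases (Egln genes) no longer mark the HIF alpha subunits, Hif1a and Epas1 (HIF-2 alpha), for destruction; the stabilized factors pair with Arnt and bind short hypoxia response elements near glucose transporters, glycolytic enzymes, Vegfa and survival genes. HIF activity is set mainly at the level of protein, which RNA does not show. Pancreatic carcinoma is known for dense, poorly perfused stroma and for high glucose use.

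Promoter windows are shown because the results turn on genes that were high together in the same tumor cells. RefSeq windows (GRCm38.p6, from 250 bases before to 50 after a transcript start) were at hand for 28 of the 32 genes; those of Slc2a3, Bnip3l, Ndrg1 and Epas1 were not used here. The letters searched were the core of the hypoxia response element, ACGTG or GCGTG, on either strand, where it reads CACGT or CACGC on the reverse strand, and the overlapping CACGTG counts once on each strand. At least 1 core stood in the window of 25 of the 28 genes (89.3%), and in 32 of their 40 windows (80%), against 14380 of all 32851 windows (43.8%) and 46.7% of 27025 genes. The core holds the letters CG, and the windows of all genes were not matched to those of the members for base content or for expression. The shares are therefore not like for like, and the difference was not tested. A core was present for 12 of the 13 genes with a window that were at least 2-fold higher in the tumor group described below and for 13 of the 15 others, so its presence did not separate them. The members printed are the 4 highest and the lowest in that group among members with 1 window: Adm at chr7:110627407-110627706 on the plus strand, Bnip3 at chr7:138909457-138909756 on the minus strand, Pfkp at chr13:6648722-6649021 on the minus strand, Ankrd37 at chr8:45999801-46000100 on the minus strand, and Slc16a1 at chr3:104638414-104638713 on the plus strand. Each is written along its transcript, and capitals mark the core letters.
Adm: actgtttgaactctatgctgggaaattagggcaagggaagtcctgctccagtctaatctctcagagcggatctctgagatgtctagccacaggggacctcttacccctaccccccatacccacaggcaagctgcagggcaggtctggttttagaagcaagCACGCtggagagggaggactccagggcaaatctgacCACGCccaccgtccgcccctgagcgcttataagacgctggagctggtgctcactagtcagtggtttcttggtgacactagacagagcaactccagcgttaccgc
Bnip3: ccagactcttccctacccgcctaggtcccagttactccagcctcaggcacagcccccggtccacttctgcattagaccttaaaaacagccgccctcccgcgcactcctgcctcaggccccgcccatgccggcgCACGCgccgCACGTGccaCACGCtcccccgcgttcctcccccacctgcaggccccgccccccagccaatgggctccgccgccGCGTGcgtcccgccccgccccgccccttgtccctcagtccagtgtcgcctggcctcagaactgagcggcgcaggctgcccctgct
Pfkp: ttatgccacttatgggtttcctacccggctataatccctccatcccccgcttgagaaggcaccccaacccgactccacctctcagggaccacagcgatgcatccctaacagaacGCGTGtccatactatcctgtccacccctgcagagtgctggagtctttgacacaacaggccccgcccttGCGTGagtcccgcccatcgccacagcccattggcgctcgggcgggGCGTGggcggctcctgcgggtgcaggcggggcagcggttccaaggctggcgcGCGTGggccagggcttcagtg
Ankrd37: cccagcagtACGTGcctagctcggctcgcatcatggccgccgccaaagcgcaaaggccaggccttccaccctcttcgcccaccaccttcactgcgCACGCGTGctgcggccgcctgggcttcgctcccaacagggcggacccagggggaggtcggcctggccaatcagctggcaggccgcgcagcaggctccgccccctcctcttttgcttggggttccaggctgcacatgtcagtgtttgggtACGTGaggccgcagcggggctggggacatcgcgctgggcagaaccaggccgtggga
Slc16a1: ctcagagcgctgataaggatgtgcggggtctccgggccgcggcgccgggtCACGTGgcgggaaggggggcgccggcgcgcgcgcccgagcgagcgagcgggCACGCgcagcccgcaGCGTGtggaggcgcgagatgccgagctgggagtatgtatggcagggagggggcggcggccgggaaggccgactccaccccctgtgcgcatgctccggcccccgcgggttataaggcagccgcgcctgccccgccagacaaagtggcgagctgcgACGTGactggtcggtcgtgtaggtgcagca
The window of Adm held 2 cores, at -90 and -54 from the start, and that of Bnip3 held 5, of which a pair is the overlapping CACGTG. Slc16a1, at the other end of the ranking, also held 5. A match of letters is a description of the window and shows no binding.

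Cells fell into 33 clusters, from which the members and the other listed genes had been left out as clustering genes. Clusters were named from fixed markers; 12 were epithelial-like, with 4488 and 5368 cells in libraries 1 and 2, and 7 clusters with 4831 and 3217 cells stayed unnamed. Of these, 6 had no marker class past the threshold, and cluster 18, with 368 cells and 9 epithelial markers past 2-fold, was left unnamed for its low depth (a median of 3317.5 UMIs) with none of those markers among its 10 leading genes. The epithelial-like and unnamed clusters together are called the tumor pool, as a working name. The unnamed clusters had summed epithelial marker levels of 5489 and 6373 CPM against 12443 and 10154 in epithelial-like cells. The sum was 5036 and 4876 CPM in T cells and 4975 and 4739 CPM in neutrophils, so it does not set the unnamed clusters apart. Summed T cell markers were 7.45 and 11.8 CPM in unnamed clusters against 1324 and 1849 in T cells. Summed neutrophil markers were 16.9 and 15.2 CPM against 3337 and 6274 in neutrophils. Some unnamed clusters may be other cells. The stromal and immune classes were fibroblast-like (371 and 464 cells), pericyte-like (60 and 54), blood endothelial-like (163 and 133), macrophage- or monocyte-like (824 and 784), dendritic-like (81 and 246), neutrophil-like (148 and 163) and T cell-like (119 and 333). Epithelial marker RNA was found in all of these, from 25.1% of the tumor pool level in fibroblasts of library 1 to 57.9% in neutrophils of library 2, and median UMIs per cell ran from 1083 in neutrophils of library 2 to 13567 in epithelial-like cells of library 2. Tumor-cell RNA in these classes therefore sits inside the levels below; the part of that RNA in each level was estimated only by the subtraction reported with it.

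Across lineages, the ratio of the highest to the lowest class mean ran from 1.52 for Hif1a to 41.4 for Slc2a3. The members highest in epithelial-like cells in both libraries were 5 of 32: the lactate and pyruvate transporter Slc16a1 (MCT1), carbonic anhydrase Car9, triose phosphate isomerase Tpi1, lactate dehydrogenase A (Ldha) and hexokinase Hk1. Over all 11295 genes tested, 7.82% met the same rule. A further 13 of 32 were highest in the same stromal or immune class in both libraries, against 40.3% of all genes: 6 in neutrophils (Slc2a1, Hk2, Pfkl, Bnip3, Ankrd37 and Egln3), 3 in dendritic cells (Gpi1, Aldoc and Pfkfb3), 2 in fibroblasts (Pfkfb4 and Eno2), Adm in blood endothelium and Epas1 in pericytes. That share lies at the background. The highest class was taken without regard to counting error, and several leads lay within it. In neutrophils of library 2, Bnip3 had 20 UMIs, at 45.7 CPM (27.9 to 70.5) against 41.0 CPM in epithelial-like cells. Slc2a1 there was at 418 CPM (360 to 483) against 394 CPM. Gpi1 in dendritic cells of library 1 was at 152 CPM (117 to 195) against 151 CPM in T cells. Pfkm was highest in unnamed cells, and for the other 13 the highest class differed between the libraries.

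**Figure D1:**
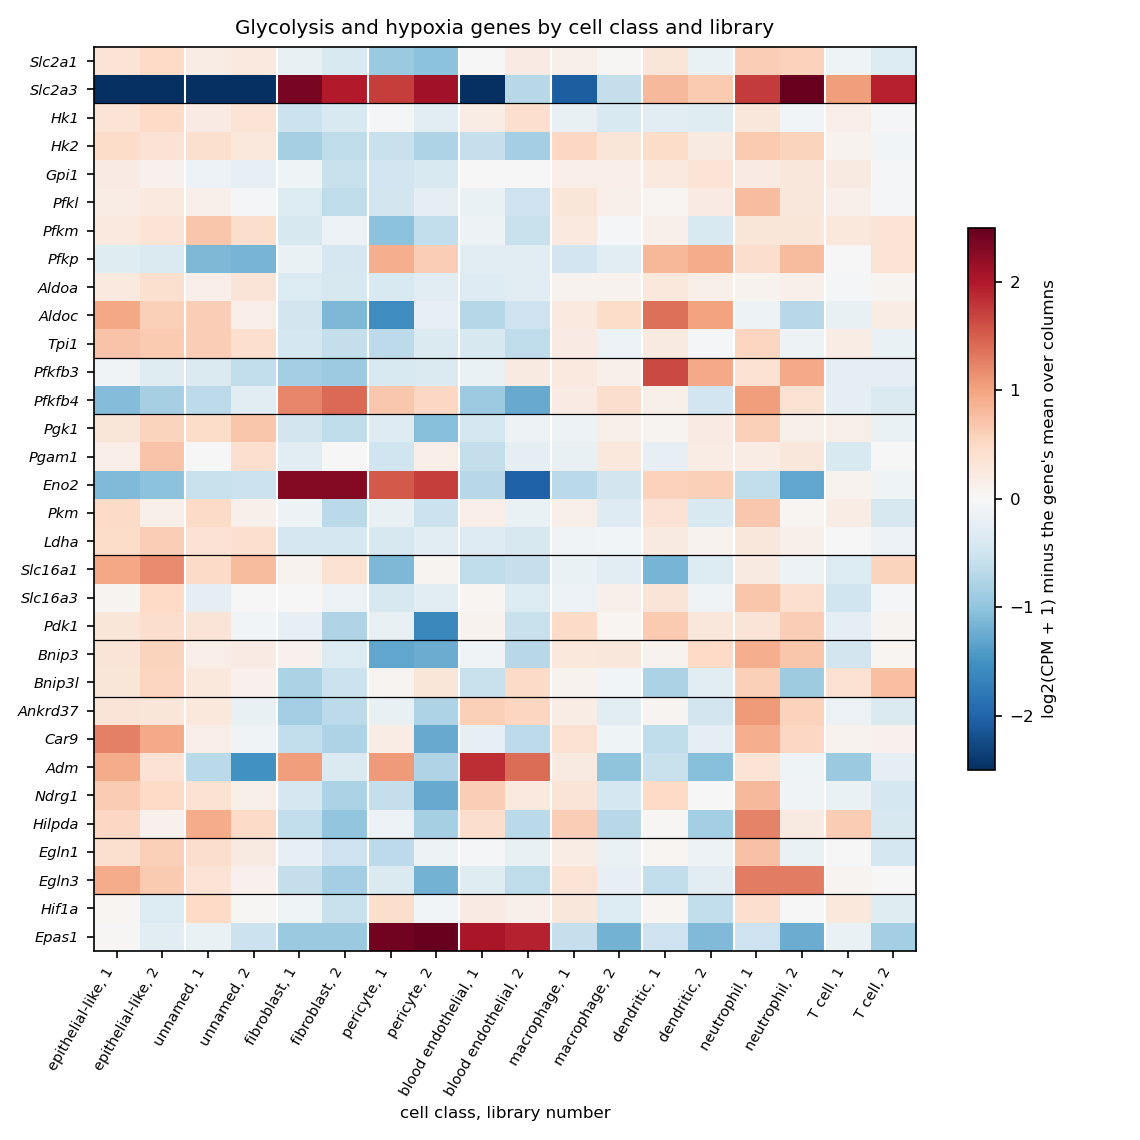
Level of each of the 32 members (rows, grouped by role from glucose uptake at the top to the HIF subunits at the bottom) in each cell class and library (columns), as log2(CPM + 1) minus the gene's mean over the columns; the color scale is cut at 2.5 in either direction. Slc2a3, Eno2 and Pfkfb4 stand out in fibroblasts and pericytes and Epas1 in pericytes and blood endothelium.

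The glucose transporters divided by cell type. Slc2a1 (GLUT1), the common transporter of tumor cells, was at 352 and 394 CPM in epithelial-like cells of libraries 1 and 2, at 429.6 and 418 CPM in neutrophils, and lowest in pericytes at 146 and 137 CPM. Slc2a3 (GLUT3), a high-affinity transporter of neurons and leukocytes, was almost missing from tumor cells, at 0.76 CPM (0.57 to 0.98) and 0.82 CPM (0.65 to 1.02). It reached 67.9 CPM (58.2 to 78.8) and 51.1 CPM (43.9 to 59.3) in fibroblasts, 42.6 and 56.1 CPM in pericytes, 43.3 and 103 CPM in neutrophils, and 26.2 and 50.1 CPM in T cells. The fibroblast level was 85.7 and 62.3 times that of the tumor pool. Within fibroblasts, the smaller cluster, led by Eln and Saa3, had 133 and 75.4 CPM and the larger, led by Cxcl14 and Itm2a, 63.4 and 33.8 CPM. Among dendritic clusters Slc2a3 was at 52.4 and 39.0 CPM in that led by Napsa and Treml2 (41 and 68 cells). It was at 6.03 and 13.5 CPM in the Clec9a cluster (27 and 149 cells). The Ccr7 cluster had 0 Slc2a3 UMIs in both libraries, but with 13 and 29 cells this does not show absence. No intervals were taken for these clusters.

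Fibroblasts also carried the neuronal enolase Eno2 and the fructose-2,6-bisphosphate enzyme Pfkfb4, which tunes phosphofructokinase. Eno2 was at 66.4 and 66.2 CPM in fibroblasts and 39.1 and 44.9 CPM in pericytes, against 5.45 and 5.75 CPM in epithelial-like cells. Pfkfb4 was at 78.4 and 89.2 CPM in fibroblasts against 15.1 and 18.2 CPM in epithelial-like cells. Together with Slc2a3 these were the 3 of 31 members tested that were at least 1.5-fold over the tumor pool in fibroblasts of both libraries, where 13.2% of all genes were. By contrast 15 of 31, among them Car9, Hilpda, Hk2, Ldha, Tpi1, Pkm and Ndrg1, were at least 1.5-fold under the pool, against 29.3% of all genes. The median log2 difference over the members was -0.63 and -0.80, beside -0.43 and -0.37 over all genes.

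The HIF subunit genes differed in where they were read. Epas1 reached 703 and 783 CPM in pericytes and 543 and 500 CPM in blood endothelium, its known sites, against 135 and 109 CPM in epithelial-like cells and 67.9 and 68.0 CPM in fibroblasts. Hif1a was even, from 55.6 CPM in dendritic cells of library 2 to 121 CPM in unnamed cells of library 1, and no class stood apart in both libraries. Adm, which encodes the vasodilator peptide adrenomedullin, was highest in blood endothelium at 55.8 and 40.8 CPM, against 29.0 and 19.3 CPM in epithelial-like cells. Adm and Epas1 were the 2 of 29 members at least 1.5-fold over the tumor pool in blood endothelium (13.3% of all genes), and 10 of 29 were that far under it (14.4%), among them Hk2, Ldha, Pgk1 and Car9.

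Some genes of the phosphofructokinase step were higher in some immune classes than in epithelial-like cells. Pfkfb3, the inducible enzyme that makes the activator of phosphofructokinase, was at 312 and 190.3 CPM in dendritic cells against 91.6 and 78.7 CPM in epithelial-like cells. The small dendritic cluster led by Ccr7 and Ccl22, genes of migratory dendritic cells, had 864 and 893 CPM in 13 and 29 cells. The other dendritic clusters had 187 and 102 CPM and 124 and 122 CPM. Pfkp, the platelet-type phosphofructokinase, was at 277 and 295 CPM in dendritic cells, 291 and 238 CPM in pericytes and 209.98 and 269.5 CPM in neutrophils, against 125 and 121 CPM in epithelial-like cells. In macrophages Pfkp was at 112 and 127 CPM, and Pfkl was at 202 and 179 CPM against 185 and 193 CPM in epithelial-like cells. In neutrophils 5 of 30 members were at least 1.5-fold over the pool (Pfkfb3, Slc2a3, Pfkfb4, Pfkp and the HIF prolyl hydroxylase Egln3; 8.91% of all genes) and only Aldoc was that far under it (4.97%). Egln3 was at 313 and 313 CPM in neutrophils against 244 and 201 CPM in epithelial-like cells. In macrophages 1 of 28 members was over the pool by that much, Pfkfb4 at 38.3 and 45.0 CPM (12.1%), and 1 was under it, Slc16a1 at 35.3 and 33.2 CPM (6.64%). The tumor-cell RNA estimated from the epithelial markers was then subtracted. After that, 10 rather than 13 members kept a highest stromal or immune class shared by both libraries. Gpi1, Pfkfb3 and Pfkfb4 did not. Subtracted levels of Pfkfb3 were 455 and 293 CPM in dendritic cells and 176 and 333 CPM in neutrophils. Those of Pfkfb4 were 98.5 and 113 CPM in fibroblasts and 125 and 70.9 CPM in neutrophils.

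The members were also compared between groups of the tumor pool. Of 18 tumor groups, group 8 had the highest summed level of 15 HIF targets that are not members (Vegfa, Ero1l, P4ha1, Kdm3a and others), 8150 and 8809 CPM, and was taken as the group to compare. The next were group 19, led by the interferon genes Ifit3 and Rsad2, with 4475 and 4272 CPM, group 6, led by Aqp3 and Il11, with 5621 and 2931 CPM, and group 7, led by Il33 and the metallothioneins Mt1 and Mt2, with 3503 and 3437 CPM. The cycling group 9 was lowest in library 1 at 1305 CPM. Group 8 held 576 and 348 cells, 6.18% and 4.05% of the tumor pool, and was led by Hspa1a, Cited1, Hspa1b, Lama3 and Rnf186. Of 31 members tested, 21 were higher in group 8 than in any other tumor group in both libraries, against 6.13% of all 9960 genes.

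**Figure D2:**
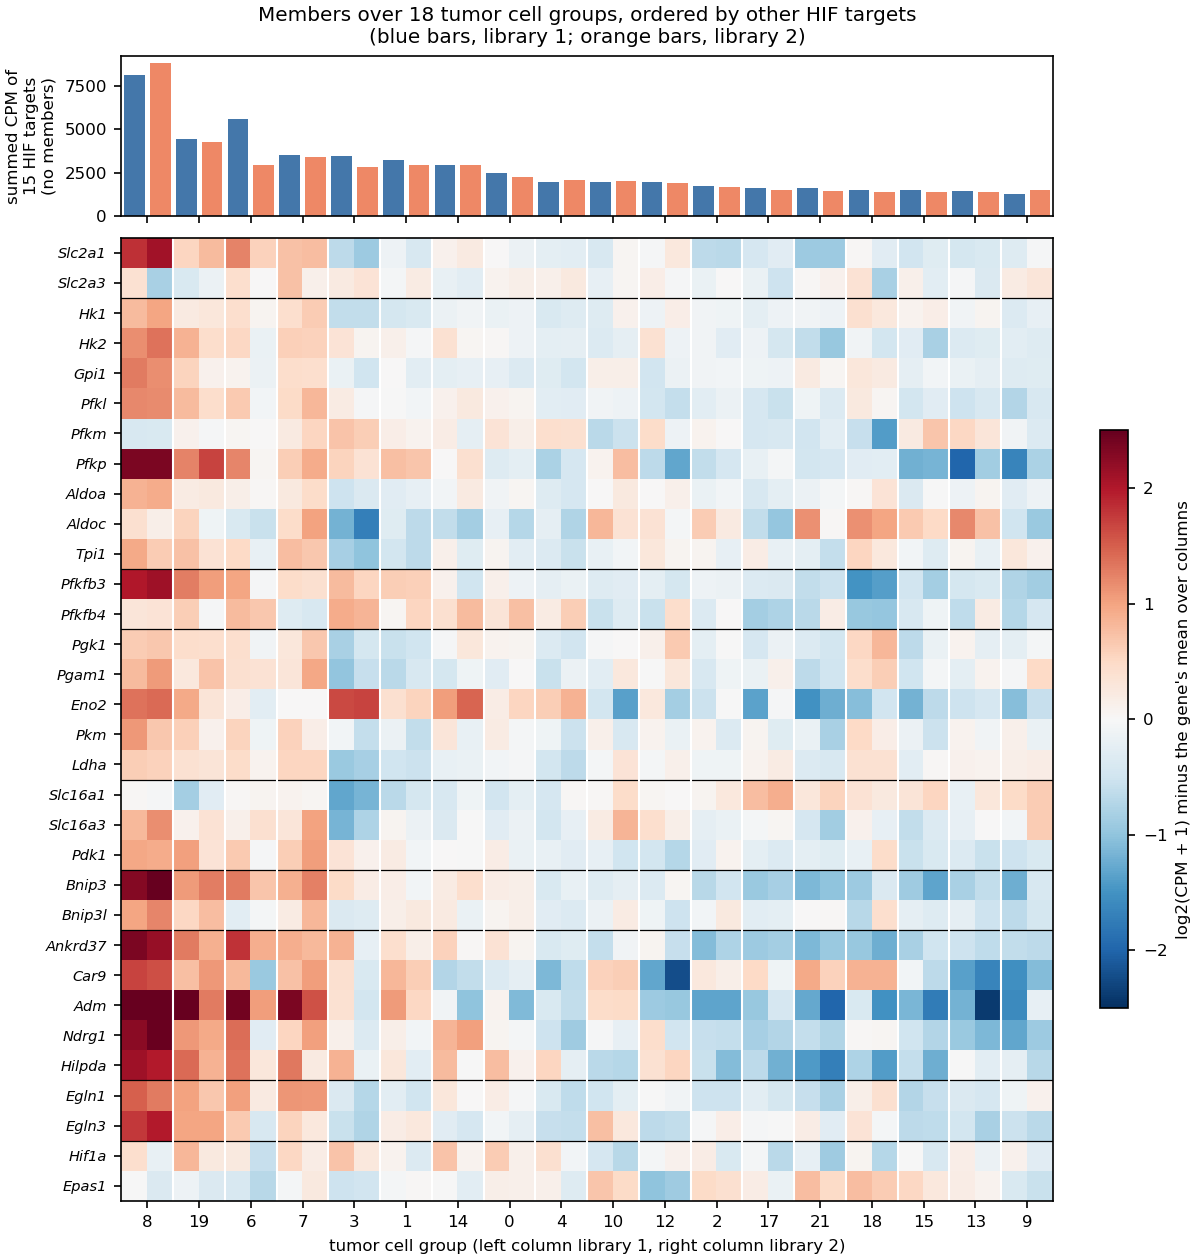
Top: summed CPM of the 15 other HIF targets in each of 18 tumor groups, blue for library 1 and orange for library 2. Bottom: log2(CPM + 1) of each member minus its mean over the columns, groups in the same order, left column library 1 and right column library 2, colors cut at 2.5. Group 8, at the left, is the darkest column for most rows, while Pfkm, Aldoc, Slc16a1 and Epas1 do not follow the bars.

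Against all other epithelial-like cells, 15 of 30 members tested were at least 2-fold higher in group 8 in both libraries, where 2.87% of all 8940 genes were. None of the 30 was 2-fold lower, where 5.08% of all genes were. Over all 32 members the median log2 difference was 1.07 in library 1 and 0.97 in library 2, beside -0.03 and -0.05 over all genes. The 32 include Eno2 and Slc2a3, which lay under the 20 CPM needed to be tested. Of the 32, 27 lay above 0 in both libraries, a count for which no share over all genes was taken. The count depended on how cells were grouped: without doublet removal, with the top group then picked anew, it was 6 members with medians of 0.45 and 0.45, at a clustering resolution of 0.5 it was 6, and at a resolution of 2 it was 9. Group 8 cells also had fewer UMIs, a median of 5197.5 and 5325 against 12882.5 and 14442 in the other epithelial-like cells. When each cell was thinned to 1000 UMIs the count was again 15. CPM is already scaled by depth and thinning keeps each cell's expected shares, so this count cannot show whether depth had a part.

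**Figure D3:**
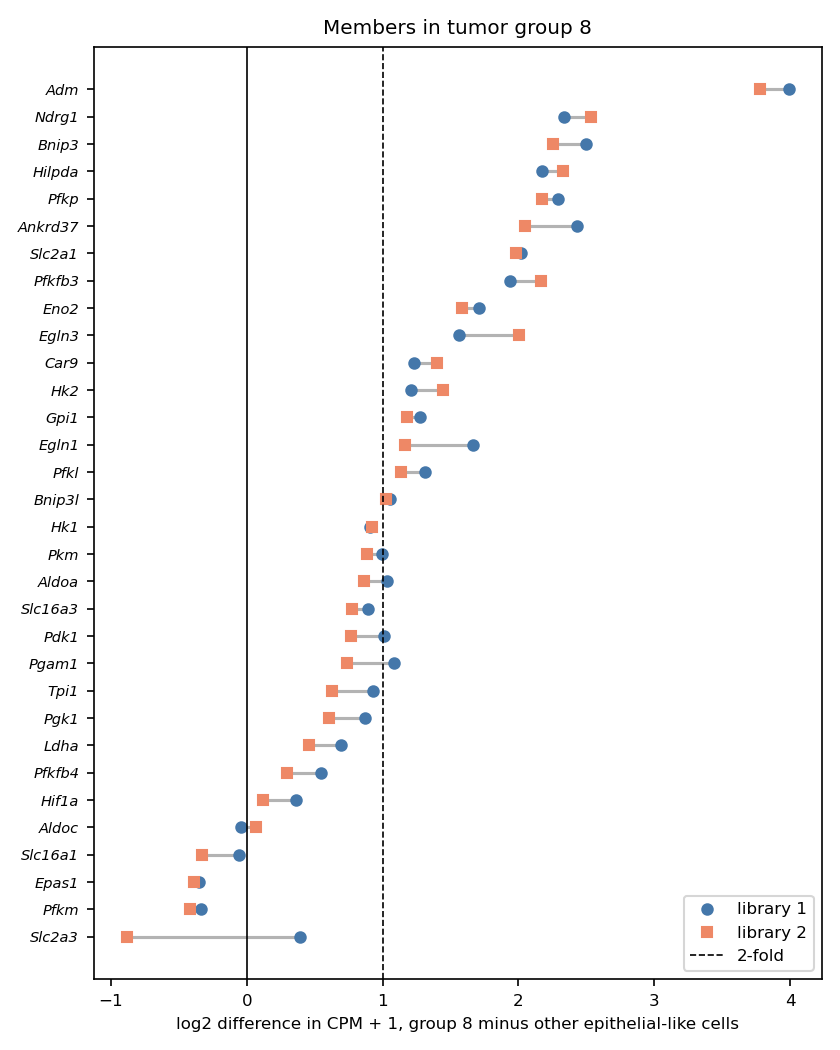
Difference in log2(CPM + 1) between group 8 and all other epithelial-like cells for each member, circles for library 1 and squares for library 2; the dashed line marks 2-fold. Adm lies furthest right at 3.99 and 3.78, the libraries lie close together for most genes, and Slc16a1, Epas1 and Pfkm lie below 0 in both.

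Of the members tested, the adrenomedullin gene Adm showed the widest gap. It was at 248 CPM (234 to 262) in group 8 of library 1 against 14.6 CPM in the other epithelial-like cells, and at 207 CPM (189.7 to 225) against 14.1 CPM in library 2, log2 differences of 3.99 and 3.78. With every cell thinned to 1000 UMIs, 19.8% and 18.8% of group 8 cells had an Adm UMI, against 1.93% and 1.70% of the others. Ndrg1, a stress-induced gene of chr15:66929318-66969640, was at 1330.4 and 1537 CPM against 263 and 264 CPM. Hilpda, an inhibitor of lipolysis that builds lipid droplets, was at 1068 and 980.1 CPM against 236 and 194 CPM. The intervals of these genes in group 8 and in the other cells were far apart in both libraries. Ankrd37 was at 262 and 232 CPM against 47.8 and 55.5 CPM, and Car9, which acidifies the space around the cell, at 858 and 806 CPM against 365 and 304 CPM. The mitophagy receptor gene Bnip3 was at 156 and 181 CPM against 26.8 and 37.2 CPM, and its relative Bnip3l at 34.0 and 40.3 CPM against 15.8 and 19.3 CPM, a gap just past 2-fold that fell short of it in 6 alternatives and changed sign in 1.

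At the entry to glycolysis, the transporter gene Slc2a1 was at 1203 and 1449 CPM against 296 and 365 CPM, log2 differences of 2.02 and 1.99. Hk2, the inducible hexokinase, was at 919 and 1054 CPM against 397 and 387 CPM, while the housekeeping Hk1 differed by 0.90 and 0.93 on the log2 scale. Of the phosphofructokinase genes, Pfkp was at 496 and 499.5 CPM against 100.5 and 110.2 CPM, Pfkl at 420.5 and 411 CPM against 169 and 187 CPM, and the muscle type Pfkm at 48.9 and 49.8 CPM against 62.2 and 66.8 CPM. Pfkm did not reach 2-fold in either direction, and between the bottom and the top bin of other HIF targets it differed by -0.20 in library 1 and 0.39 in library 2 on the log2 scale. Pfkfb3 was at 301 and 326 CPM against 77.8 and 71.9 CPM, whereas Pfkfb4, at 21.9 and 22.4 CPM against 14.7 and 18.1 CPM, stayed under 1.5-fold. Gpi1, which follows hexokinase, was at 332 and 304 CPM against 136 and 134 CPM.

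Of the later enzymes, none of Aldoa, Tpi1, Pgk1, Pgam1 and Pkm was 2-fold higher in both libraries. The enolase gene Eno2 was at 17.5 and 18.2 CPM against 4.65 and 5.41 CPM, log2 differences of 1.71 and 1.59, and lay under the 20 CPM needed to be counted. Log2 differences in libraries 1 and 2 were 1.03 and 0.87 for Aldoa, 0.93 and 0.63 for Tpi1, 0.87 and 0.61 for Pgk1, 1.08 and 0.74 for Pgam1, and 0.997 and 0.89 for Pkm. Ldha was at 1028 and 1003 CPM against 635 and 729 CPM, a log2 difference of 0.69 and 0.46. Pdk1, which limits the oxidation of pyruvate inside the mitochondrion, was at 105 and 103 CPM against 51.8 and 59.9 CPM. The lactate exporter Slc16a3 (MCT4) was at 253 and 323 CPM against 136 and 188 CPM. The other transporter, Slc16a1, was at 76.5 and 72.9 CPM against 79.6 and 92.1 CPM. Slc2a3 was at 1.27 CPM (0.46 to 2.75) in group 8 of library 1, against 0.72 CPM in the other epithelial-like cells. It had 0 UMIs in group 8 of library 2, which allows at most 1.40 CPM by the same interval, against 0.84 CPM. At these levels no difference in Slc2a3 could be read in either direction.

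The oxygen sensors and the HIF subunits behaved unlike each other. Egln3 was at 646 and 751 CPM against 218 and 186 CPM, and Egln1 at 712 and 625 CPM against 224 and 279 CPM; both are prolyl hydroxylase genes that HIF itself induces. Hif1a was at 112 and 72.9 CPM against 86.8 and 67.1 CPM, and Epas1 at 106 and 84.0 CPM against 136 and 110.01 CPM.

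Members were also compared over bins of single epithelial-like cells, whatever cluster of that class a cell came from. Epithelial-like cells with at least 5000 UMIs, 3541 and 4515 of them, were thinned to 5000 UMIs and put into 10 equal bins within each library by their summed UMIs of the 15 other HIF targets. From the lowest to the highest bin those targets ran from a mean of 3.01 to 49.9 UMIs per cell in library 1 and from 2.67 to 46.0 in library 2. At least 1.5-fold more in the top than in the bottom bin of both libraries was found for 24 of 30 members, against 11.8% of all 9107 genes, and at least 1.5-fold less for 0 of 30, against 17% of all genes. The median over members was 1.71 and 1.75 on the log2 scale, beside -0.04 and -0.08 over all genes. Group 8 supplied 52.5% and 27.5% of the top bin; without its cells 24 members again passed and the medians were 1.501 and 1.73. The top bin had fewer UMIs before thinning, a median of 9556.5 and 10336 against 21067 and 22497.5 in the bottom bin, whose part in the result beyond the thinning was not tested.

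**Figure D4:**
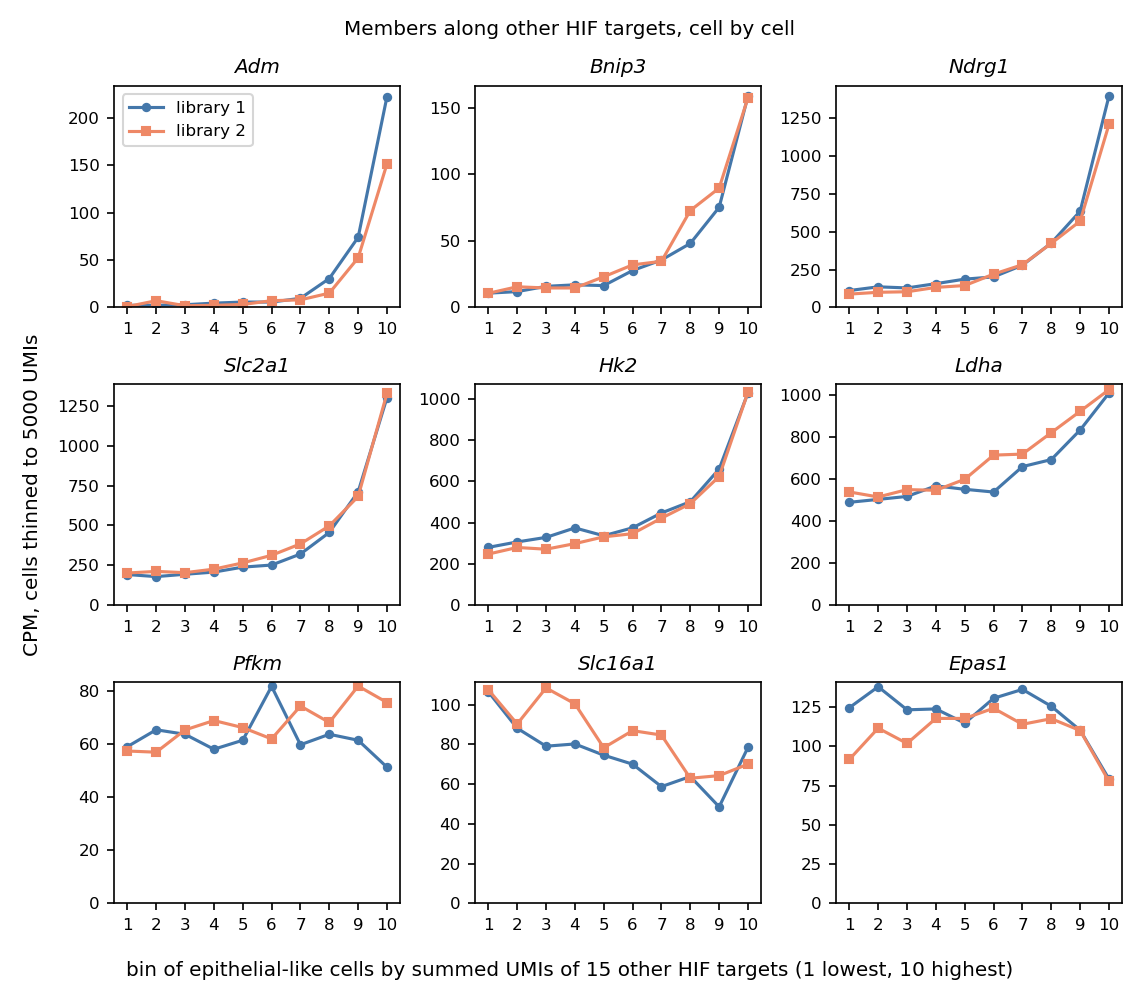
CPM of 9 members in each of 10 bins of epithelial-like cells ordered by the UMIs of the other HIF targets, cells thinned to 5000 UMIs, blue circles library 1 and orange squares library 2; each vertical axis starts at 0. Adm is near 0 until the upper bins and then climbs to 223 and 152 CPM, Ldha climbs gradually, and Slc16a1 and Epas1 end lower than they began.

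The shape along the bins differed between members. Adm ran from 2.25 to 223 CPM in library 1 and from 0.88 to 152 CPM in library 2, with most of the gain in the last 3 bins. Bnip3 ran from 10.7 to 159 CPM and from 10.6 to 157 CPM, and Ndrg1 from 112 to 1398 CPM and from 88.1 to 1211 CPM. Pfkp ran from 43.9 to 509 CPM and from 35.0 to 512 CPM, the widest span of the glycolytic enzymes. Slc2a1 ran from 193 to 1300 CPM and from 203 to 1328 CPM, and Hk2 from 281 to 1028 CPM and from 248 to 1031 CPM. Pdk1 ran from 20.8 to 133 CPM and from 31.4 to 139 CPM, a wider gap than between group 8 and the rest. Ldha only about doubled in either library, from 490.1 to 1010 CPM and from 539 to 1026 CPM. Slc16a1 went the other way, from 106 to 78.5 CPM and from 108 to 70.1 CPM, and Epas1 from 125 to 79.1 CPM and from 91.6 to 77.6 CPM. Hif1a differed by 0.54 and 0.62 on the log2 scale, on either side of 1.5-fold.

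Over the 18 tumor groups, the correlation of each member with the summed other targets was taken as a description, since the groups share libraries and differ in depth. Pearson's r was 0.98 for Bnip3, 0.97 for Ankrd37, 0.93 for Adm and for Pfkfb3, 0.92 for Hk2, and 0.91 for Pfkp and Ndrg1. It was 0.25 for Ldha, 0.37 for Tpi1, 0.40 for Pgk1 and 0.43 for Pgam1. Those later enzymes instead followed each other, with r of 0.97 between Tpi1 and Pgam1 and 0.96 between Ldha and Tpi1. Leaving group 8 out, r was 0.96 for Bnip3 and 0.01 for Ldha. Outside the listed genes, the 10 genes whose pattern over 36 group and library points was most like the mean of Ankrd37, Egln3, Car9, Adm, Ndrg1, Hilpda and Bnip3 were Syt17 (r of 0.93), Zfp469, Mxd1, Swap70, Mgarp, Gipr, Fgf11, Rcor2, Rnf217 and Npepps (r of 0.87). Mxd1, an antagonist of Myc, was at 811 and 1007 CPM in group 8 against a median of 80.6 and 80.8 CPM over the other groups.

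Related gene lists were read in group 8 the same way. Of 15 other HIF targets, which chose the group, 13 were at least 2-fold higher, Vegfa at 3767 and 3930 CPM against 829 and 751 CPM among them; this is a description only, and Stc2 and Ddit4 were the others. Of 14 further genes of sugar and pyruvate metabolism tested, only Pgm1 was 2-fold higher, at 181 and 155 CPM against 69.4 and 73.5 CPM. The liver-type pyruvate kinase Pklr was 2-fold lower, at 14.6 and 15.2 CPM against 55.7 and 53.6 CPM, and the list's median was -0.17 and -0.21. Of 12 regulators of HIF, the inhibitory subunit Hif3a (28.05 and 43.3 CPM against 9.75 and 8.38 CPM) and Cited2, which competes with HIF for its coactivator (370.1 and 337 CPM against 119.7 and 144 CPM), were 2-fold higher and none lower.

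None of 17 genes of the respiratory chain and citrate cycle passed 2-fold in group 8, with a median of -0.52 and -0.49; along the bins 13 of 17 were at least 1.5-fold lower at the top, with a median of -0.79 and -0.86. Of 10 cell cycle genes 9 were 2-fold lower in group 8, Mki67 at 10.97 and 6.08 CPM against 62.6 and 71.6 CPM, and all 10 were 1.5-fold lower in the top bin than in the bottom bin. The other epithelial-like cells include the cycling groups 9 and 17, whose cell cycle genes summed to 2391 and 2550 CPM and to 2213 and 2509 CPM. Group 8 had 189 and 247 CPM. The remaining epithelial-like groups ran from 144 to 454 CPM in library 1 and from 199 to 512 CPM in library 2. Low cell cycle RNA was therefore not particular to group 8. Of the heat shock genes, Hspa1a was at 311 and 162 CPM against 10.4 and 12.1 CPM, and Hspa1b at 539.8 and 342 CPM against 33.7 and 31.3 CPM. Of 8 immediate early genes, which dissociation can induce, Fosb and Atf3 were 2-fold higher, with a list median of 0.38 and 1.07. The mitochondrial share was close, a median of 0.41% and 0.60% of UMIs in group 8 against 0.33% and 0.47%. Their part in the members' levels was not tested.

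Between the libraries, epithelial-like cells differed little in these genes. None of 28 members tested was 1.5-fold higher or lower in library 2 than in library 1 in epithelial-like cells, where 2.09% and 2.44% of all genes were, and the median log2 difference was -0.04 beside -0.0008 over all genes. In unnamed cells the counts were also 0 of 28 and 0 of 28, against 1.2% and 0.549%, with a median of -0.18. In fibroblasts Adm alone of 30 was lower, at 31.8 and 11.3 CPM in libraries 1 and 2 (4.21% of all genes), and none was higher (4.59%). In blood endothelium 3 of 27 were lower, Pdk1, Hilpda and Bnip3 (7.04%), and none higher (8.06%); the calls of Pdk1 and Bnip3 did not hold when cells were thinned or when doublets were kept. In macrophages 4 of 28 were lower, Hilpda, Hif1a, Ndrg1 and Epas1 (6.25%), and none higher (6.9%); with cells thinned, Hif1a was 0.25 higher on the log2 scale. In neutrophils Slc2a3 was higher (14.6%) and 8 of 30 were lower, Hilpda, Tpi1, Egln1, Pkm, Pfkfb4, Bnip3l, Ndrg1 and Epas1 (11.2%); with doublets kept, Epas1 was 0.074 higher on the log2 scale. In T cells Slc16a1 and Slc2a3 of 30 were higher (8.69%) and Hilpda, Pkm and Epas1 lower (5.01%).

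**Figure D5:**
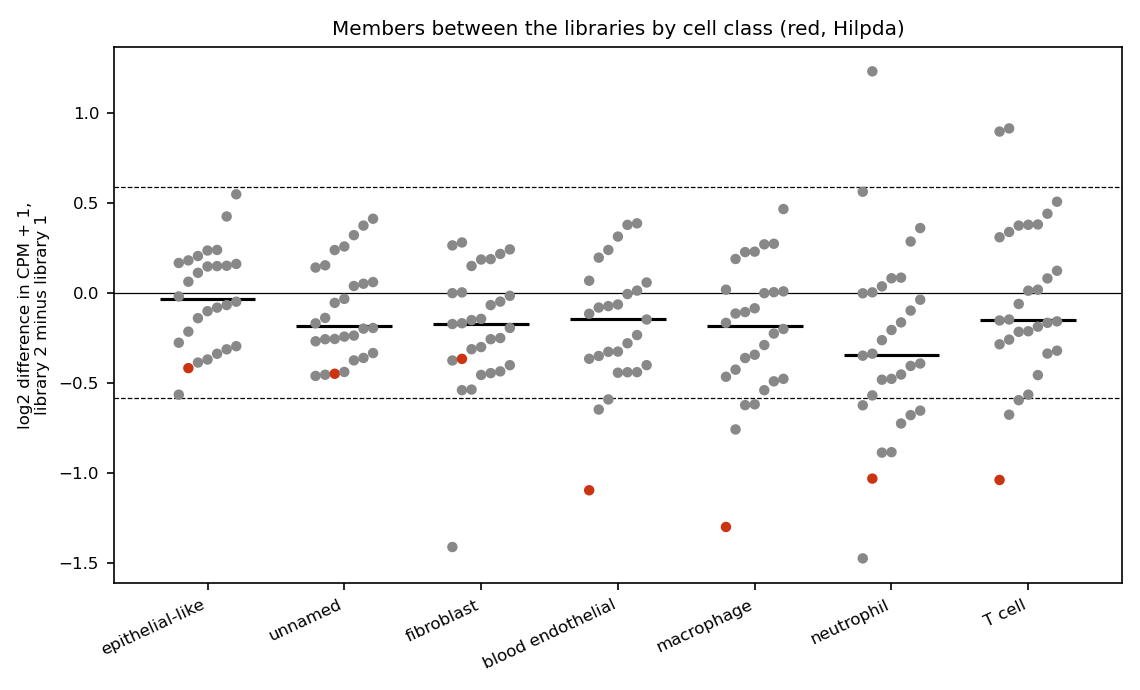
Each point is a member's log2(CPM + 1) in library 2 minus library 1 in a cell class with at least 100 cells in both libraries; bars are medians over the members tested, dashed lines mark 1.5-fold and red points are Hilpda. Points lie within the lines in epithelial-like and unnamed cells, and Hilpda is near or below -1 in the endothelial and immune classes.

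Hilpda was at least 1.5-fold lower in library 2 in 4 of the 7 classes, with log2 differences of -0.42 in epithelial-like cells, -0.45 in unnamed cells, -0.37 in fibroblasts, -1.10 in blood endothelium, -1.30 in macrophages, -1.03 in neutrophils and -1.04 in T cells. Its macrophage levels were 306 CPM in library 1 and 124 CPM in library 2. Hilpda, Tpi1, Pkm, Ndrg1 and Hif1a were lower in library 2 in all 7 classes compared, except that Hif1a was higher in macrophages after thinning. The phosphoglycerate mutase gene Pgam1 was higher in all 7, from 0.08 in neutrophils to 0.55 in epithelial-like cells. No fold was required here, and Tpi1 differed by only -0.07 in epithelial-like cells and Hif1a by -0.07 in blood endothelium. The share of all genes with the same sign in all 7 classes was not taken, so this is no result about the members. The classes come from the same 2 libraries and share tumor-cell RNA, so they are no independent repeats. Slc2a3 was at 43.3 and 103 CPM in neutrophils and at 26.2 and 50.1 CPM in T cells.

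Among tumor groups the libraries agreed in group 8 and parted in group 6. In group 8 only Hif1a of 30 members was 1.5-fold lower in library 2 (2.21% of all genes) and none was higher (1.72%), with a median of -0.01. In group 6, 17 of 29 were at least 1.5-fold lower in library 2 (6.61% of all genes) and none was higher (7.75%), with a median of -0.67 beside 0.02 over all genes. Ndrg1 there was at 733 and 228 CPM, Car9 at 467 and 138 CPM, Slc2a1 at 803 and 505 CPM, and Pfkp at 227 and 99.7 CPM. Group 6 held 330 cells with a median of 9785.5 UMIs in library 1 and 810 cells with a median of 16894.5 in library 2, and the part of that depth in the difference was not tested. The share of group 8 in the UMIs of epithelial-like cells was 6.18% in library 1 and 2.67% in library 2. With the groups of library 2 reweighted to the shares of library 1, the median log2 difference over the 32 members was -0.06 in place of 0.06. Egln1 went from 0.18 to -0.11, Pdk1 from 0.15 to -0.07 and Pgam1 from 0.55 to 0.35.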

How the data were processed

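Single-cell gene expression was measured in 2 samples, each a pool of 4 tumors. The authors deposited 1 matrix of raw UMI counts per gene and cell holding both libraries; it was made with Cell Ranger 8.0.0 on mm10, per the submitters' processing notes, and whether cells were filtered further is not given in the sources used here. The members and gene lists were chosen with earlier results of these data known. Every member was named, any listed gene with at least 20 CPM in the class described could be named, and the 10 genes most alike and the 5 leading genes of a group were taken by rule.

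Cells with fewer than 500 UMIs, fewer than 200 genes or over 20% mitochondrial UMIs were removed, and the highest Scrublet scores were removed at 0.8% per 1000 cells (1217 and 1137 cells). Counts were scaled to 10000 UMIs, and 3000 variable genes without the 127 listed genes, 50 components and 15 neighbors gave Leiden clusters at resolution 1 (Python 3.11.15, scanpy 1.11.5, leidenalg 0.10.2). A cluster was named from at least 3 markers at 2-fold over all other cells. Clusters without a class were then tried for epithelial markers alone, against the mean of the clusters named as other classes. Clusters 1, 6, 7, 9 and 19 became epithelial-like only in that step. A name was withheld if median UMIs were far below the sample's (less than 1/3) with none of those markers among the 10 leading genes. It was also withheld if markers of another class outnumbered its own among those 10. Summed counts per class and library became CPM with exact Poisson 95% intervals; differences were taken on log2(CPM + 1), understating low genes, for genes with at least 20 CPM. Depth was 203459556 and 185474400 UMIs. No test was made, since each library number has 1 library. Alternatives covered scaling (TMM factors from edgeR 4.0.16 in R 4.3.3), pseudocount, filters, doublets, resolution, depth and tumor-RNA subtraction; leaving out shared barcodes, pooling unnamed clusters and leaving out group 8 were added after seeing the data. The steps were tested on simulated data.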

Additional observations from a re-analysis of the deposited data

Results flagged for a closer look

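Pfkp and Bnip3 are listed here because their levels in library 2 against library 1 lay in opposite directions in different tumor groups, past 1.5-fold with counting intervals apart. For Pfkp the log2 difference was 1.12 in group 13, led by S100a4 and Muc5b, and -1.18 in group 6, led by Aqp3 and Il11. For Bnip3 it was 0.84 in the cycling group 9 and -0.60 in group 6. The Pfkp levels were 23.7 and 52.6 CPM in group 13 and 227 and 99.7 CPM in group 6. These differences between groups were not tested, since each library number has 1 library.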

How the results depend on the processing

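No paired analysis was possible because each library number has 1 library and no test was made. The 24 members higher in the top target bin stayed between 22 and 24 over 12 settings, and members with a shared highest stromal or immune class between 9 and 14. Of the values compared for whole classes and groups, 240 stayed within the limits set and 56 moved; of single-member values 430 stayed, 72 no longer passed the fold and 6 changed sign. The cause of these shifts was not tested.

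Members 2-fold higher in group 8 (15) became 23 at 1.5-fold, 6 without doublet removal, 6 at resolution 0.5 and 9 at resolution 2; their median was 0.45, 0.68 and 0.80 in library 1 under the last 3 settings, and in library 2 it was 0.45 without doublet removal and 0.45 at resolution 0.5. Without doublet removal the bin median of library 1 was 1.17 and 2 members were highest in epithelial-like cells.

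Members past 1.5-fold between the libraries moved as follows. In fibroblasts (1) they were 3 with TMM, 3 with median-of-ratios factors, 7 by per-cell shares, 11 after thinning, 2 without the filter, 8 after subtraction and 3 without doublet removal. In epithelial-like cells (0) they were 1 by per-cell shares, 2 after thinning, 1 at a pseudocount of 0.1 and 1 without doublet removal. In unnamed cells (0) they were 1, 2, 1 and 2 by per-cell shares, after thinning, without the filter and without doublet removal, 1 at 1000 UMIs a cell and 2 at resolution 2. In blood endothelium (3) they were 6 by per-cell shares, 10 after thinning, 6 without the filter, 6 after subtraction, and 1 each at a pseudocount of 10, at 2-fold, without doublet removal, at 1000 UMIs a cell and with the listed genes kept in the clustering. In macrophages (4) they were 10 after thinning, 12 after subtraction, 2 at a pseudocount of 10, 1 at 2-fold and 2 without doublet removal. In neutrophils (9) they were 20 after thinning, 19 after subtraction and 3 at 2-fold, and in T cells (5) they were 15, 17 and 1. Medians moved to -0.26, -0.31 and -0.43 in T cells (per-cell shares, thinning, subtraction), -0.033 and -0.77 in neutrophils (thinning, subtraction), -0.34 in fibroblasts (subtraction), and 0.17 and 0.16 in epithelial-like cells (1000 UMIs a cell, resolution 2).

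Signs changed for Bnip3l in group 8 at resolution 2 (-0.22), for Pdk1 (0.37) and Bnip3 (0.35) in blood endothelium and Hif1a in macrophages (0.25) after thinning, and without doublet removal for Bnip3 in blood endothelium (0.028) and Epas1 in neutrophils (0.074). Automatic doublet thresholds marked 0 cells in either library and gave no value of their own. T cells gave no value without doublet removal or at 1000 UMIs a cell. Depth limits the small classes: 60 and 54 pericytes and neutrophils at a median of 1303 and 1083 UMIs.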

Other observations

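Cell cycle genes were compared between the libraries in the same classes, a gene counting as higher or lower past 1.5-fold. In epithelial-like cells 6 of 10 (Top2a, Cdk1, Ccna2, Tpx2, Pcna and Rrm2) were higher in library 2, with a median log2 difference of 0.63, beside 2.09% of all genes. The counts were 3 of 4 in unnamed cells (median 0.84, all genes 1.2%), 5 of 8 in fibroblasts (0.83, 4.59%) and 8 of 9 in blood endothelium (1.70, 8.06%). In macrophages they were 8 of 9 (0.86, 6.9%), in neutrophils 2 of 4 (0.90, 14.6%) and in T cells 5 of 10 (0.61, 8.69%).

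Of the immediate early genes, 3 of 7 were lower in library 2 in epithelial-like cells (median -0.36, all genes 2.44%), 0 of 6 in unnamed cells (-0.14, 0.549%) and 0 of 6 in fibroblasts (0.22, 4.21%). In blood endothelium 2 of 7 were lower and Fosb was higher (-0.34, 7.04%), and in macrophages 1 of 7 was lower (-0.36, 6.25%). In neutrophils 5 of 7 were lower (-0.71, 11.2%) and in T cells 4 of 8 (-0.70, 5.01%). Each value comes from 1 library a side and was not tested.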
